A study of Homo sapiens with 6 samples.

Results

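The genes described here are 10 members of the Krüppel-like factor (KLF) family of transcription factors: KLF3, KLF4, KLF5, KLF6, KLF7, KLF9, KLF10, KLF11, KLF13 and KLF16. They were taken from 20098 protein-coding genes on chromosomes 1 to 22 and X, as a fixed list of names, and each was measured over its gene body and 5 kb on each side in the hg19 build. The list was set with earlier results of these data known. The data are END-seq peak lists from HCT116 cells, a human colorectal carcinoma line, exposed to 10 µM camptothecin (CPT), a poison that holds topoisomerase I in its cleavage complex on DNA. The 4 treated libraries were 2 biological replicates of cells treated for 10 min (CPT10) and 2 of cells treated for 20 min (CPT20). Their sample names put 10 and 20 before µM, whereas the treatment protocol gives 10 µM for both times, and the protocol was followed here. Untreated cells (Ctrl, 2 libraries) entered as the input of the peak calling and no peak list of theirs was used here, so no value over a KLF gene in untreated cells is given. All groups are 1 cell line, and mouse pre-B cells served as a spike-in.

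KLF proteins bind GC-rich and CACCC-type DNA through C-terminal zinc fingers. The family is usually divided by the partners of the N-terminal part, into mainly activating members (KLF4, KLF5, KLF6 and KLF7 here), a branch that recruits the CtBP corepressor (KLF3) and a branch that recruits Sin3A (KLF9, KLF10, KLF11, KLF13 and KLF16). In the intestinal epithelium KLF5 is known from proliferating crypt cells and KLF4 from differentiating cells, and several members are early-response genes whose transcripts are made and lost quickly. END-seq ligates an adapter to the free ends of double-strand breaks (DSBs), so that reads run away from the break on both sides. A paired site was called where a reverse-strand peak overlapped a forward-strand peak, or where its nearest forward-strand peak began under 150 bp to its right. Overlapping peaks were paired in either order, so a site can also be the overlap of a forward peak with a reverse peak on its right. At a DSB the reverse peak lies on the left, so such a site does not have the order of a DSB. Each peak carries the −log10 q-value of its summit, and the −log10 q of a site is that of the weaker of its paired peaks, or of the best pair where several were merged. A site was called replicated where a site of one replicate overlapped a site of the other by at least 1 bp. Strand here is that of the genome, and distances are from the 5′ end of the gene, positive in the direction of transcription.

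Replicated sites were found in the windows of 5 of the 10 genes, and 3 sequences are printed as examples, 1 each from KLF6, KLF3 and KLF4, where paired peaks were found in both replicates of a time. Each is 300 bases of the GRCh37 reference (the same build as hg19), + strand, centred on the stretch shared by both replicates, and capitals mark that shared stretch. The KLF6 window is chr10:3825524-3825823 in an intron (20 min, 31 shared bases), the KLF3 window is chr4:38668726-38669025 in an intron (20 min, all 300 bases shared) and the KLF4 window is chr9:110249953-110250252 in a coding exon (20 min, 86 shared bases).
KLF6: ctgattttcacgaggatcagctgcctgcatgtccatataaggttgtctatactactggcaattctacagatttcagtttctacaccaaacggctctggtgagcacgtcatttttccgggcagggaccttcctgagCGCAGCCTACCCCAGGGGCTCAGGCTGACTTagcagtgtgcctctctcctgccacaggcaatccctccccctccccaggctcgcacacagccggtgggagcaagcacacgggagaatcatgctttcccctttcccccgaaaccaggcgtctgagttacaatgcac
KLF3: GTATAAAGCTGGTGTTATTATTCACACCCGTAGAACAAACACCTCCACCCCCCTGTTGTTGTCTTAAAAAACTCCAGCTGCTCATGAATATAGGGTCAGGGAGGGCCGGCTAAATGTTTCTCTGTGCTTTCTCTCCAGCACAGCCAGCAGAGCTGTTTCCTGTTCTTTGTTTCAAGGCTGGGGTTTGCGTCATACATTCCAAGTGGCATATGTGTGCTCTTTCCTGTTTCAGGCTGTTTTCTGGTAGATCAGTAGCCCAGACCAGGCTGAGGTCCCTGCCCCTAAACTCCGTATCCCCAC
KLF4: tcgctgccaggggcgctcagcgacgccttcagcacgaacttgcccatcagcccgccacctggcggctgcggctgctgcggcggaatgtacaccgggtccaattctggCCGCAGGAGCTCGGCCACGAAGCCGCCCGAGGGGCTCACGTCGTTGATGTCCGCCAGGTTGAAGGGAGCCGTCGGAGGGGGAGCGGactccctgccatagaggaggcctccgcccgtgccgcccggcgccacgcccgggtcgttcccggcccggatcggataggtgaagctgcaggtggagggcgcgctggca

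The base composition was taken from these 3 windows alone, and the KLF10 sites, the KLF7 site and the other KLF3 sites were not part of it. The GC content was 55.7% at KLF6, 49.3% at KLF3 and 71.3% at KLF4. Over the 6662 replicated sites of the genome, windows of the same length had a median GC content of 40%, with quartiles of 34.3% and 47.7%, so the 3 printed windows lay above the upper quartile. The genome-wide windows were centred on the whole sites, in or outside genes, and were not matched for distance from a gene start. The CACCC box, a short motif that KLF proteins bind, was looked for as CACCC on either strand. It occurred 2 times in the KLF3 window and was not found in the KLF6 and KLF4 windows, and 38.0% of all replicated-site windows held it.

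The lists held between 286491 and 826744 peaks per strand, and their depths differed. The height expected by chance in the peak caller's model, a relative measure of depth, ran from 0.727 fragments in the reverse list of CPT10 replicate 2 to 1.44 in the forward list of CPT10 replicate 1. CPT20 replicate 2 had the shortest lists, and CPT10 replicate 1 had a reverse list of 826744 peaks against 591881 in its forward list. Peak counts of a gene were therefore divided by the window length and by the median peaks per kb of all 20098 protein-coding windows in the same library, which is called relative density below and equals 1 at the median gene. Peaks are not reads, neighbouring peaks of a library are not independent, and intervals given for counts cover counting error only.

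Peaks were listed more densely over the KLF genes than over the median protein-coding gene in each library. The 10 windows cover 443.52 kb and held 314 peaks in CPT10 replicate 1, 187 in CPT10 replicate 2, 285 in CPT20 replicate 1 and 135 in CPT20 replicate 2. Their joint relative density was 1.25, 1.11, 1.17 and 1.43 in the same order. Placed among all protein-coding windows, the median KLF gene was at the percentile 75.3, 75.3, 80.2 and 83.8. The windows together held 33, 12, 47 and 10 paired sites, which was 1.63, 1.24, 2.46 and 2.54 times the mean site density of protein-coding windows. Among non-overlapping neighbours of opposite strands under 150 bp apart, the reverse peak came first by genome position 7, 6, 12 and 4 times. The forward peak came first 8, 4, 7 and 3 times. How many sites pair the ends of separate breaks was not tested. The excess in peak density was not shared evenly, as 7 genes averaged above the median gene and 3 below it. The 17 other genes of the KLF and Sp families had a median percentile of 48.1, with single genes from 8.27 to 98.1, against 79.7 (31.8 to 99.1) for the 10 genes, and this is a description without a test. Since both lists were chosen with earlier results of these data known, the difference may be part of that choice.

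KLF10 had the highest relative density of the 10 in every library, and KLF4 and KLF6 followed by their means. Means over the 4 libraries were 3.11 ± 0.58 (SD) for KLF10, 2.40 ± 0.81 for KLF4, 2.07 ± 0.61 for KLF6, 1.68 ± 0.24 for KLF5, 1.54 ± 0.70 for KLF16, 1.48 ± 0.47 for KLF3, 1.28 ± 0.15 for KLF11, 0.91 ± 0.21 for KLF13, 0.88 ± 0.31 for KLF7 and 0.73 ± 0.41 for KLF9. The ranges over libraries overlapped for every pair of neighbours in this order, and for some genes farther apart. KLF10 ran from 2.64 to 3.88, KLF6 up to 2.92 and KLF5 from 1.46 to 2.02. These ranges pool the libraries and do not compare genes within a library, where KLF10 was above KLF4 each time. The genes at or above the percentile 75 in all 4 libraries were KLF4, KLF5, KLF6 and KLF10, which is 4 of 10, against 9.77% of all protein-coding genes and 2 of the 17 other family genes (KLF2 and SP2).

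**Figure D1:**
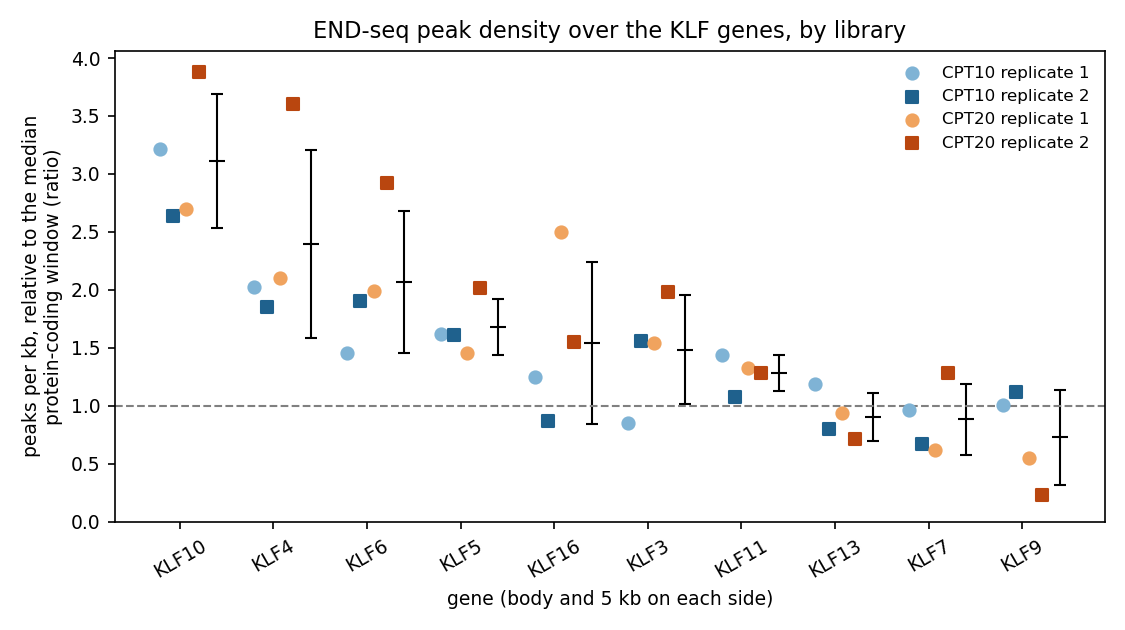
Relative density (peaks per kb of the gene window over the median protein-coding window of the same library, linear axis) of each KLF gene, with 1 point per library and the mean ± SD over 4 libraries as a black bar. The dashed line marks the median protein-coding gene. KLF10 lies between 2.64 and 3.88, above the line in all libraries, while KLF9 lies at 1.01 and 1.12 at 10 min and at 0.55 and 0.23 at 20 min.

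Counted by replicated paired sites, 3 of the 10 KLF genes had one at 10 min (KLF3, KLF7 and KLF10). The share was 11.5% of all protein-coding genes and 11.2% of the 13586 genes with windows in the same length range (15.6 to 118.8 kb). At 20 min 4 genes had one (KLF3, KLF4, KLF6 and KLF10), against 11.0% and 11.7%. The sites of KLF7 at 10 min and of KLF4 and KLF6 at 20 min had the forward summit to the genomic left of the reverse one. The shares of all genes were not split by this order. A site of 10 min that overlapped one of 20 min was found in 2 genes, KLF3 and KLF10, against 3.81% and 3.98%, and 5 genes had a replicated site at either time, against 16.9% and 17.0%. At KLF10 the overlap was between the whole sites and not between the stretches shared by the replicates. Among the 17 other family genes 3 (KLF2, SP2 and SP3) had a replicated site, and each had one at both times. These counts rest on few sites and have no error estimate. The count of 3 genes at 10 min became 2 where −log10 q of at least 3 was required, against 5.63% of all protein-coding genes, and 5 where peaks under 300 bp apart were paired, against 15.6%. No KLF gene had a replicated site where −log10 q of at least 10 was required, against 0.826% of all protein-coding genes at 10 min and 1.56% at 20 min.

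A second measure asked for stretches where same-strand peaks of all 4 libraries overlapped, whatever their pairing. Such stretches were found in KLF3, KLF4, KLF6, KLF10 and KLF16, which is 5 of 10 genes, against 25.3% of all protein-coding genes, 24.6% of those in the length range, and 5 of the 17 other family genes. Between any pair of libraries the share of KLF peaks of the first that overlapped a same-strand peak of the second was 17.5% to 32.1%, against 8.81% to 18.8% for the whole lists. In each of the 6 pairs the KLF share was the higher one. Windows with more peaks have more overlaps, and the part of density in this difference was not tested.

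Among the activating members, KLF4 had the densest window. KLF4, a reprogramming factor and a regulator of epithelial differentiation, spans chr9:110247133-110252763 on the − strand. Its window held 18, 11, 18 and 12 peaks in the order of libraries used above, a relative density of 2.03, 1.85, 2.10 and 3.61. Both values at 20 min were above both at 10 min, but CPT20 replicate 1 was close to CPT10 replicate 1, with 18 peaks each. The gene stayed between the percentiles 94.0 and 98.2. Much of this lay within the gene, as its first 5 kb held 9, 6, 12 and 7 peak summits, or 3.17, 3.15, 4.38 and 6.57 times the peaks per kb of the median window. The replicated site at 20 min, 1084 bp wide with its centre 2692 bp into the gene, covers the coding-exon sequence printed above and had a −log10 q of 6.89 and 2.57 in the 2 replicates. In both replicates the forward summits of its pairs lay to the genomic left of the reverse summits. A site of CPT10 replicate 1, centred at 1994 bp and 593 bp wide, overlapped the edge of that site but not the printed sequence. CPT10 replicate 2 had none there. Forward peaks of all 4 libraries overlapped 4108 bp into the gene, in an intron, with summits of 25, 9, 14 and 11 fragments.

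KLF6, an early-response activator also studied as a tumour suppressor, spans chr10:3818188-3827473 on the − strand and combined a dense window with a sparse neighbourhood. Its window held 16, 14, 21 and 12 peaks, a relative density of 1.46, 1.91, 1.99 and 2.92. Both values at 20 min were again above both at 10 min, with CPT20 replicate 1 close to CPT10 replicate 2. The 500 kb on each side had only 0.61 to 0.80 times the density of the median protein-coding window, so that KLF6 stood 2.25 to 4.44 times above its surroundings. The highest single peak was a forward peak in CPT10 replicate 1 with a summit of 36 fragments, 6070 bp into the gene. That peak did not recur in all libraries, whereas a reverse peak 1504 bp into the gene, in an intron, was found in all 4, with summits of 6, 16, 16 and 16 fragments. In both CPT20 libraries this reverse peak was also the reverse peak of the replicated site of 20 min. That site was centred at 1743 bp, with −log10 q of 8.76 and 6.70. In both replicates the forward summit lay to the genomic left of the reverse summit, so the site is the overlap of the paired peaks. CPT10 replicate 2 had an overlapping site as well.

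KLF5, which drives proliferation of intestinal crypt cells, spans chr13:73629114-73651679 on the + strand and differed from KLF4 and KLF6 in holding no replicated site. Its window held 30, 20, 26 and 14 peaks, a relative density of 1.62, 1.61, 1.46 and 2.02, and the times overlapped. Single libraries had 4, 1, 5 and 1 sites, but none of them coincided between replicates. The first 5 kb held only 3, 2, 2 and 1 summits, and the peaks were spread over the rest of the window, with the highest ones between 6906 and 25938 bp from the gene 5′ end. The start of the principal transcript lies 4029 bp inside the annotated gene.

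KLF7, a widely expressed activator best known from neurons, spans chr2:207938861-208038580 on the − strand and was below the median gene in 3 of 4 libraries. Its window of 109.7 kb held 60, 28, 37 and 30 peaks, a relative density of 0.96, 0.67, 0.62 and 1.28. It had 5, 1, 1 and 1 sites, and 1 was replicated, at 10 min. The forward summit of that site lay to the genomic left of its reverse summit in both CPT10 replicates. The start of its principal transcript lies 7908 bp inside the annotated gene. The noncoding genes MIR2355, KLF7-IT1 and MYOSLID share this window.

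KLF3, the member that recruits CtBP and acts mainly as a repressor, had a paired site at the same place in all 4 libraries. The gene spans chr4:38665818-38703138 on the + strand, and its antisense gene KLF3-AS1 lies in the same window. The window held 23, 28, 40 and 20 peaks, a relative density of 0.86, 1.55, 1.54 and 1.98, so CPT10 replicate 1 stood below the other 3 libraries. Its sites numbered 1, 5, 8 and 3. The site in question lay about 3 kb into the gene, centred at 3050 bp at 10 min and at 2902 bp at 20 min. Its −log10 q was 8.99 and 1.53 in the CPT10 replicates and 10.9 and 6.70 in the CPT20 replicates. In CPT10 replicate 1 the forward summit (2976 bp) lay to the left of the reverse summit (3103 bp), unlike in the other libraries. In CPT10 replicate 2 the reverse peak had 4 fragments, the lowest summit height of that list. A further site of 20 min lay at 1198 bp, with 4.33 and 4.07. There the reverse peaks of all 4 libraries overlapped over 49 bp, with summits of 15, 15, 35 and 25 fragments, so that both CPT20 summits exceeded both CPT10 summits. Heights were not scaled for depth, and the expected height of the reverse lists was 1.41 and 0.727 fragments at 10 min and 1.20 and 0.858 at 20 min.

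KLF10, of the Sin3A branch and known as a TGF-β-inducible early gene, had the most peaks and the most sites per kb of the set over the 4 libraries. It spans chr8:103661012-103667953 on the − strand. Its window of 16.9 kb held 31, 17, 25 and 14 peaks, the last with a 95% exact Poisson interval of 7.65 to 23.5. Relative density was 3.22, 2.64, 2.69 and 3.88, with overlapping times, and the percentile ran from 98.7 to 99.96. The surroundings were also dense: 500 kb on each side had 1.48 to 1.80 times the density of the median protein-coding window, and KLF10 exceeded them by 1.54 to 2.16 times. The part of the surroundings in the value of KLF10 was not tested.

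The window of KLF10 held 8, 3, 5 and 2 sites, the largest number of sites among the 10 genes (18 in all). At 10 min 3 were replicated, centred at 2654 bp and 5196 bp in introns and at 6329 bp in a UTR, with the smaller −log10 q of the replicates at 5.50, 2.95 and 3.72. At 20 min 1 was replicated, centred 7611 bp from the gene start, just past the gene end, and its full width of 2608 bp overlapped the 10 min site at 6329 bp. The stretches shared by both replicates did not overlap between the times. They were centred at 5983 bp at 10 min (466 bp) and at 6950 bp at 20 min (439 bp). CPT10 replicate 2 had no site that overlapped the one of 20 min. The forward peak 2606 bp into the gene was present in all libraries, with −log10 q of 15.1, 29.1, 4.33 and 12.03, so here the CPT10 values were not below the CPT20 values. Further shared stretches were a forward one at 5772 bp and 3 reverse ones at 7150, 8132 and 8744 bp.

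**Figure D2:**
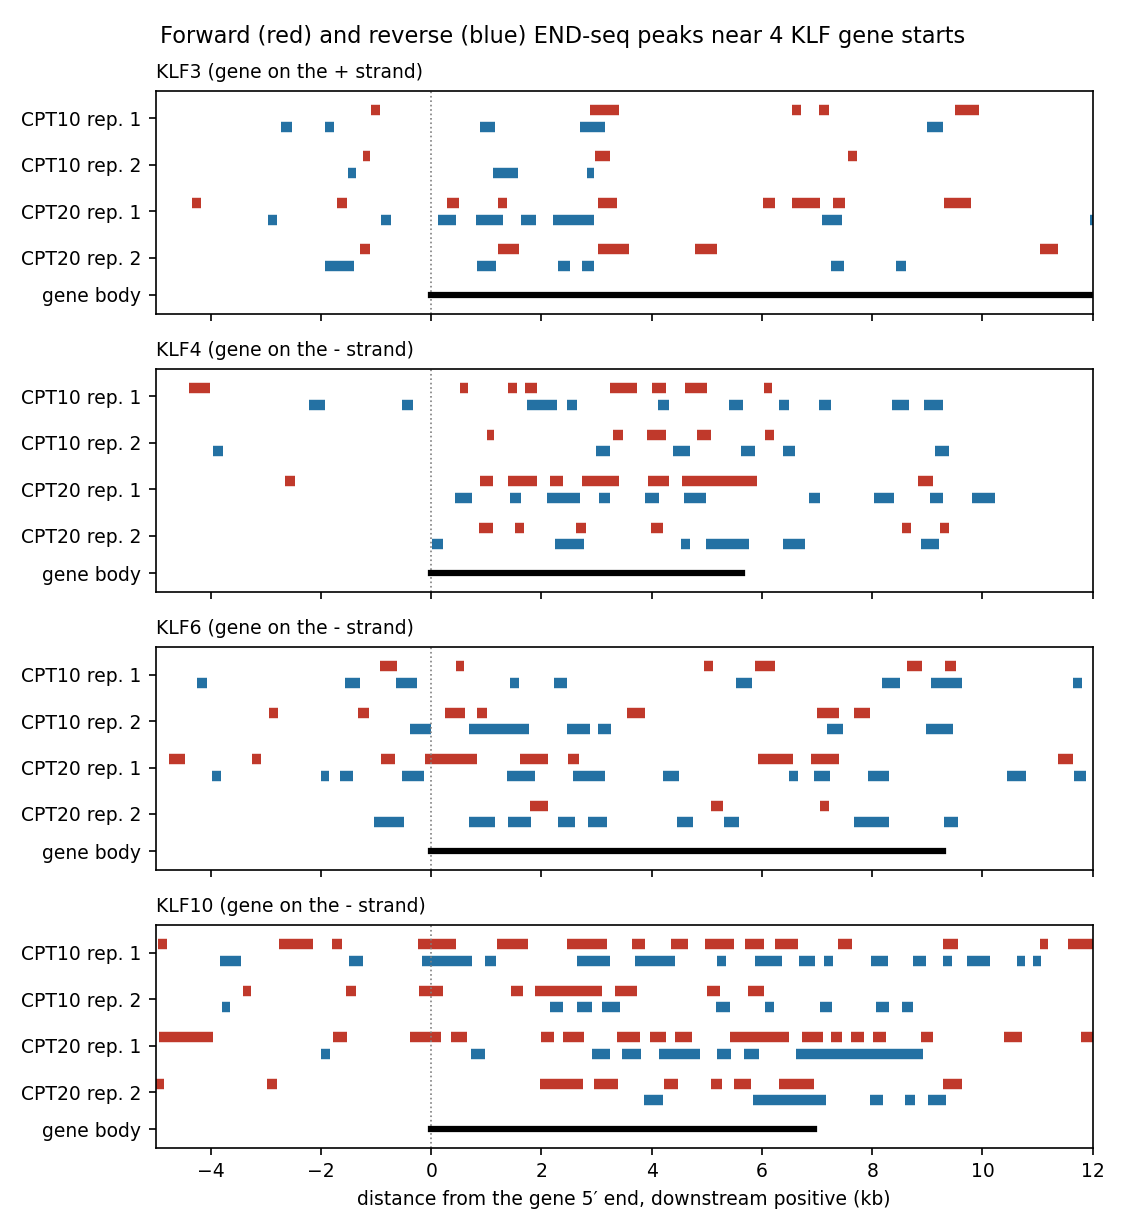
Peaks of the 4 libraries from 5 kb upstream to 12 kb downstream of the gene 5′ end of KLF3, KLF4, KLF6 and KLF10 (horizontal axis in kb, along the direction of transcription), with forward-strand peaks in red above and reverse-strand peaks in blue below in each row, and the gene body as a black line. KLF3 shows reverse peaks near 1.1 kb and paired peaks near 3 kb in every row, and KLF10 is covered more densely than the others. On the − strand genes the axis is mirrored, so a pair of peaks that do not overlap has the reverse peak on the right.

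KLF9, another Sin3A-branch member and a target of glucocorticoid and thyroid hormone, had fewer listed peaks at 20 min than at 10 min. It spans chr9:72999520-73029573 on the − strand, and its window held 23, 17, 12 and 2 peaks, a relative density of 1.01, 1.12, 0.55 and 0.23. Both values at 20 min were below both at 10 min. The 2 peaks of CPT20 replicate 2 have a 95% exact Poisson interval of 0.242 to 7.22, which is the counting limit of that library. A single site was found in all, in CPT20 replicate 1, and none was replicated.

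KLF11, the second TGF-β-inducible member of the set, spans chr2:10182976-10194963 on the + strand and shares its window with the coding gene CYS1. It held 18, 9, 16 and 6 peaks, a relative density of 1.44, 1.08, 1.33 and 1.28, which is the smallest spread among the 10 genes (SD 0.15). Sites were found only in CPT20 replicate 1, which had 2.

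KLF13, a regulator of CCL5 in T lymphocytes, has the longest window (118.8 kb) and spans chr15:31619038-31727868 on the + strand. It held 80, 36, 61 and 18 peaks, a relative density of 1.18, 0.80, 0.94 and 0.71. Sites followed the replicate number rather than the time, with 8 in CPT10 replicate 1, 7 in CPT20 replicate 1 and none in the replicate 2 libraries. The replicate 1 libraries were also the deeper ones of each time by expected height. Depth and replicate number cannot be told apart here, and the part of depth was not tested.

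KLF16 spans chr19:1852398-1863578 on the − strand, next to the coding gene REXO1, and was the most variable by percentile, from 34.3 to 98.3. It held 15, 7, 29 and 7 peaks, a relative density of 1.25, 0.87, 2.5 and 1.55, with both values at 20 min above both at 10 min. Of its 9 sites 7 were in CPT20 replicate 1 and 2 in CPT10 replicate 1. The stretch that all 4 libraries shared, a forward one of 23 bp in an intron, was weak, with summits of 6, 6, 5 and 7 fragments.

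The comparison between the times asked whether listed peaks and paired sites over these genes changed from 10 to 20 min. On the log2 scale the joint relative density differed by 0.14 (CPT20 minus CPT10), which was above the SD between replicates at 10 min (0.12, n = 2) and below that at 20 min (0.20, n = 2; two-sided exact permutation p = 0.667). The difference was −0.0018 with CPT20 replicate 2 left out, so its direction rests on that library. Sites per 1000 sites of the library were 0.321 and 0.219 at 10 min and 0.548 and 0.531 at 20 min. This was a log2 difference of 1.02 with no overlap of the times (two-sided exact permutation p = 0.333). With lists of equal length it was 0.48 and the times overlapped (two-sided exact permutation p = 0.667). With 4 libraries the test cannot give a p below 0.333.

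Gene by gene, both CPT20 densities were above both CPT10 densities in KLF4, KLF6 and KLF16, which is 3 of 10 genes against 15.1% of all protein-coding genes, and below in KLF9, 1 of 10 against 13.0%. In a limma fit of log2 (peaks per 1000000 listed peaks + 1) over 17931 genes with a mean of at least 5 peaks, no gene passed an adjusted p of 0.05 (0%), the KLF genes included (adjusted p 0.99994 for each). Without adjustment 538 genes (3.0%) had a p under 0.05, and among them were 3 of the 10 KLF genes, KLF9, KLF3 and KLF16. That number was 0 with no filter on low values, with −log10 q of at least 3 and with lists of equal length. It was also 0 of the 5 KLF genes tested with a mean of at least 20 peaks. With a pseudocount of 3 or scaling by the median window it was 2, and with the replicate block 3. KLF9 differed by −1.30 ± 0.50 (SE, log2, CPT20 minus CPT10), KLF3 by 0.67 ± 0.31 and KLF16 by 0.94 ± 0.45. The other 7 were between −0.15 (KLF13) and 0.59 (KLF6). The median over the KLF genes was 0.24 and that over all genes tested 0.10, and 8 of the 10 were above 0. KLF4 differed by 0.57, by 0.36 with lists of equal length and by 0.11 with −log10 q of at least 3. In the same 2 settings KLF6 differed by 0.18 and 0.52, and KLF16 by 1.46 and 1.54. Leaving out CPT20 replicate 1 changed the picture most: 107 genes then passed the adjusted threshold, and KLF9 was one of them at −1.94 (adjusted p = 0.0428 by limma), with the lone CPT20 library assumed to vary like those of CPT10. Without CPT20 replicate 2, 5 genes passed and no KLF gene was among them.

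**Figure D3:**
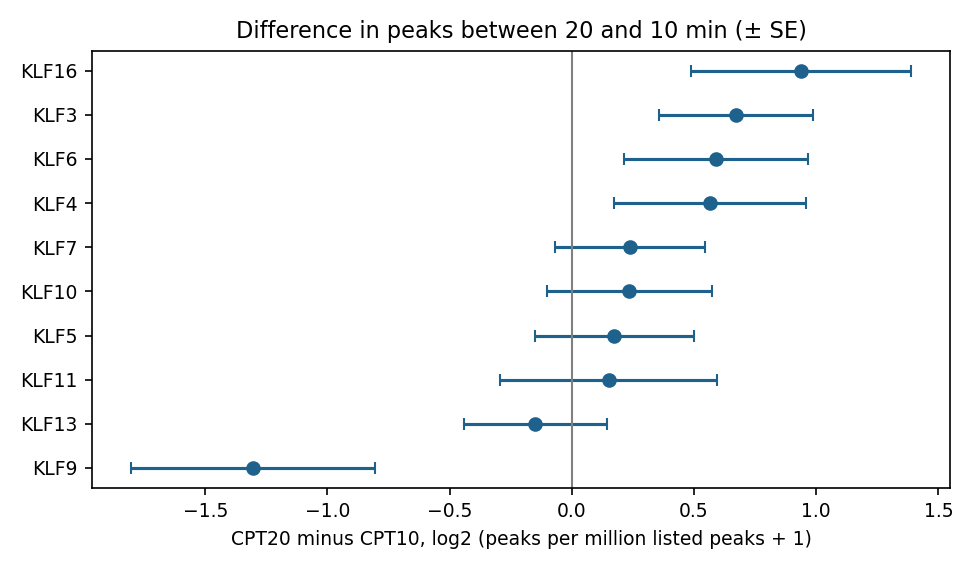
Difference between CPT20 and CPT10 in log2 (peaks per 1000000 listed peaks + 1) for each KLF gene (horizontal axis), with the standard error of the limma fit over 2 libraries per time. KLF9 lies lowest at −1.30 and KLF16 highest at 0.94, and no gene passed the adjusted threshold.

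The position of the peaks within the gene was compared between parts of the windows. Summed over the KLF genes, density was highest from 2 to 5 kb downstream of the gene start. The relative density there was 2.14 ± 0.59 (SD, n = 4 libraries) against 1.25 over the 17227 protein-coding genes of at least 5 kb. The first 2 kb had 1.75 ± 0.52 against 1.34. Upstream, the values were 1.14 ± 0.14 and 1.06. In the rest of the gene they were 1.10 ± 0.10 and 0.94, and in the 5 kb past the end 1.36 ± 0.22 and 1.08.

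The density of the first 5 kb over that of the rest of the window was taken with each part summed over the genes. It was 1.29 and 1.50 at 10 min and 1.99 and 2.17 at 20 min in the KLF genes. In all genes of that length it was 1.27, 1.20, 1.44 and 1.50. Both CPT20 values of the KLF genes were above both CPT10 values, with a log2 difference of 0.58 (two-sided exact permutation p = 0.333, the smallest it can give), and the same held for all genes of that length. The KLF difference was 0.25 with lists of equal length, 0.34 with −log10 q of at least 3 and 1.25 with −log10 q of at least 10, where the times overlapped (two-sided exact permutation p = 0.667). In KLF5 the first 5 kb lies largely before the start of the principal transcript, and in KLF7 all of it does. KLF4 and KLF10 supplied the largest numbers of these peaks, as their first 5 kb held 34 and 30 summits over the 4 libraries. KLF6 came next with 21, followed by KLF3 with 19, of which 3 and 3 were in the CPT10 libraries and 7 and 6 in the CPT20 libraries. KLF9 had 5 and KLF13 had 6. Each gene gives 5 kb to the first part, while long windows such as KLF7 and KLF13 weigh more in the rest. The ratio therefore also holds differences in density between genes. In KLF5 the first 5 kb was below its whole window in each library, with 0.6, 0.4, 0.4 and 0.2 against 0.92, 0.61, 0.80 and 0.43 per kb. KLF3 and KLF4 were above theirs in each library, and the other genes differed between libraries.

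**Figure D4:**
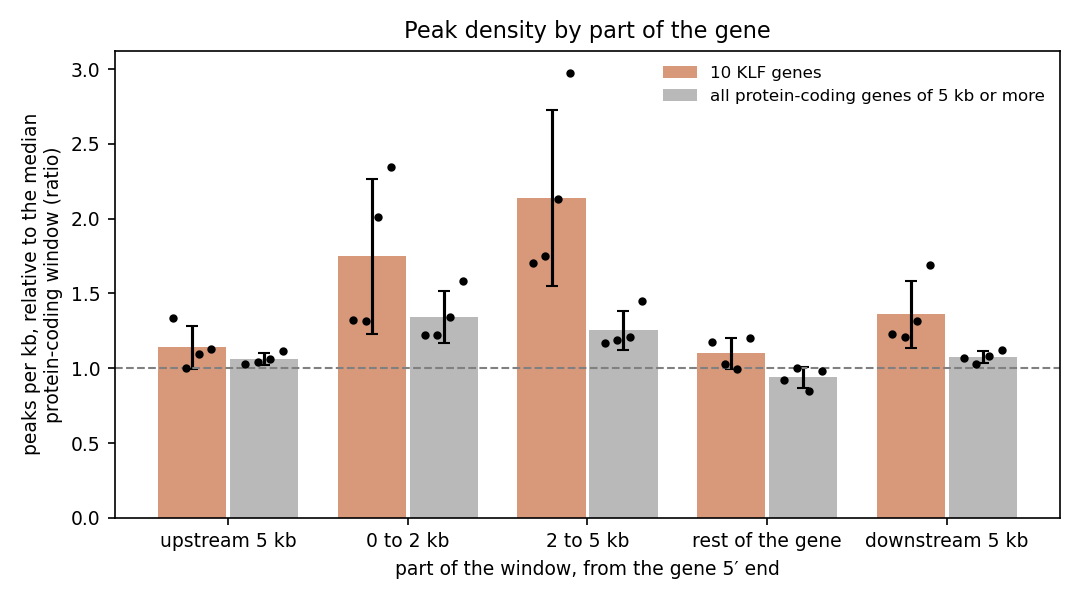
Relative density by part of the window, as the mean ± SD over 4 libraries (bars from 0) with 1 point per library, for the 10 KLF genes and for all 17227 protein-coding genes of at least 5 kb. Summed over the genes, the part from 2 to 5 kb is highest in the KLF genes, at 2.14 against 1.25. The dashed line marks the median protein-coding window.

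Peaks over the KLF genes lay on the forward strand slightly more often than over other genes. The forward share was 46.5% in CPT10 replicate 1 (95% Wilson interval 41.1 to 52.0), 54.5% in CPT10 replicate 2 (47.4 to 61.5), 53.7% in CPT20 replicate 1 (47.9 to 59.4) and 58.5% in CPT20 replicate 2 (50.1 to 66.5). Over all protein-coding windows it was 42.2%, 50.3%, 50.1% and 50.3%. The KLF share was 4.32, 4.24, 3.54 and 8.22 percentage points higher, and in all 4 libraries the Wilson interval contained the value of all windows. The difference between the times, 1.60 points, was smaller than the spread at 20 min (SD 3.31, n = 2; two-sided exact permutation p = 1) and turned to −0.74 points with CPT20 replicate 2 left out.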

How the data were processed

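END-seq libraries came from untreated HCT116 cells and from cells given CPT for 10 or 20 min, in 2 biological replicates per condition. According to the study's methods, reads were trimmed with Trim Galore 0.6.5, aligned to hg19 with Bowtie2 2.5.0 and filtered with SAMtools 1.16.1 to properly paired reads of mapping quality 30 or more, with duplicates retained. The authors then called peaks with MACS2 2.2.7.1 for each treated library and strand at a q-value of 0.05, against the control library and without a local background. Duplicates kept in the reads can raise single summits. In the 8 deposited lists the authors' peak caller gave each peak a score (the whole part of 10 times −log10 q), a summit fold enrichment as a linear ratio, −log10 p and −log10 q values, and the summit offset.

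Here, peaks and sites were counted per gene window (GENCODE release 44 on GRCh37). The 10 genes, the family list and the tests were chosen with earlier results of these data known, and the shared same-strand stretches, the percentile count and the parts of the gene were added after the peak lists had been seen. Summit heights were recovered from the fold values and the constant expected height of each list, and were within 0.02 of a whole number in 100% of the peaks of under 99 fragments. The rule for naming genes was to name all 10, to name other family genes where they held a replicated site or were counted, and to name genes that share a window. Group means of the 2 times were compared by two-sided exact permutation tests in scipy 1.17.1, and peaks per gene across all genes by limma 3.58.1 (lmFit, eBayes with trend, Benjamini-Hochberg adjustment) in R 4.3.3, which was checked on simulated data. The alternatives were −log10 q thresholds of 3 and 10, lists of equal length (286491 peaks), gene bodies with 0 or 10 kb on each side, other pairing and overlap rules, other pseudocounts, filters and scalings, each library left out and a block for the replicate number. Blacklisted regions were not removed and read counts were not used here. Coordinates are 1-based. Sequences of the other replicated sites are not reported here.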

Additional observations from a re-analysis of the deposited data

How the results depend on the processing

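Of 195 alternative settings over 18 results, 171 were alike. For the permutation comparisons only the direction was checked, and for counts a value within 1.5 times. For single genes it was the direction and the side of the threshold. The main results had 80 settings, of which 66 were alike, and the single genes 115, of which 105 were alike. A block for the replicate number could not move any difference, since each number holds both times. The number of KLF genes with an overlapping replicated site at both times was 1 with −log10 q of at least 3, with lists of equal length and with pairing under 50 bp, against 2. The number at 10 min was 5 with pairing under 300 bp. With −log10 q of at least 10 the numbers at 10 min, at 20 min and at both times were 0, the log2 difference in peak density was −0.24 (relative to the mean window where the median window held no such peak) and the difference in forward share was −4.26 points, and no value of the paired sites could be had, since a library then had no site over these genes. Leaving out 1 library at a time, the log2 difference in density ran from −0.0018 (without CPT20 replicate 2) to 0.28, that in sites from 0.75 to 1.30, that in forward share from −0.74 (without CPT20 replicate 2) to 3.94 points and that of the first 5 kb from 0.47 to 0.69. The genes called by limma numbered 0 to 107 over the same omissions (107 without CPT20 replicate 1, 5 without CPT20 replicate 2) and 1 with no filter on low values. Differences of single genes turned with lists of equal length at KLF10 (−0.11) and KLF11 (−0.22), with −log10 q of at least 3 at KLF11 (−0.11), and when a library was left out at KLF7 (−0.14 to 0.62), KLF11 (−0.11 to 0.41) and KLF13 (−0.50 to 0.20). The study's methods group the libraries into 2 experiments that each hold all conditions, but the sources used here do not tie replicate numbers to them (correlation of the deviations of same-numbered libraries 0.246). With the replicate number as a block, limma called 0 genes, 1503 had an unadjusted p under 0.05, and no call of a KLF gene changed. The causes were not tested.

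Few peaks per window limit the precision: the smallest count, 2 peaks, has an exact Poisson interval of 0.242 to 7.22. With 2 libraries per time no exact permutation p can fall below 0.333, and a p above a threshold does not show that the times were alike. Depth differed between libraries and was corrected only through the lists themselves.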

Other observations

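In KLF7, the highest forward peak of both replicate 1 libraries lay at nearly the same place, 80379 bp into the gene with a summit of 26 fragments in CPT10 replicate 1 and 80402 bp with 22 fragments in CPT20 replicate 1. The replicate 2 libraries had no forward peak there, and their highest forward peaks were at 37764 bp (10 fragments) and 8358 bp (12 fragments). The third-ranked forward peaks of the replicate 1 libraries also coincided, at 54180 and 54194 bp.

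The highest forward peak of KLF10 in CPT20 replicate 1 had its summit 37 bp downstream of the gene 5′ end, with 26 fragments, and CPT10 replicate 2 had its highest one at 2552 bp with 27 fragments. In KLF11 the highest reverse peaks of the replicate 1 libraries were at 2550 bp (19 fragments) and 2387 bp (28 fragments), and the replicate 2 libraries had theirs at 9665 and 5444 bp.

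KLF2, an activating member outside the set of 10, was at a median percentile of 98.1 and held 3 replicated sites at 10 min and 1 at 20 min. SP2 and SP3, of the related Sp family, had 2 and 1 at 10 min and 2 and 2 at 20 min.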
